A study of Mus musculus with 6 samples.

Results

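Thrombospondins, tenascins, fibronectin and versican are large glycoproteins that cells secrete into the pericellular matrix. The 9 genes described here are the thrombospondin genes Thbs1, Thbs2, Thbs3 and Thbs4, the tenascin genes Tnc, Tnn and Tnxb, the fibronectin gene Fn1 and the versican gene Vcan. They were picked by family name, with earlier results of these data known, and each was measured by 1 probe set that carries its symbol alone, out of 19935 genes with such a probe set. Expression was measured on 6 single-channel arrays, 2 from osteoblastic cells of mice deficient in Y1, a receptor for neuropeptide Y (Y1KO), and 4 from cells of wild-type (WT) mice. All mice were male and carried a green fluorescent reporter under a 3.6-kb fragment of the rat type I collagen alpha 1 promoter. Stromal cells of the femoral and tibial marrow were grown for 7 days, and fluorescent cells were sorted before RNA was extracted. The reporter marks cells that use a type I collagen promoter and is not restricted to 1 stage of the osteoblast lineage. The labels give neither the age and strain of the mice nor how the Y1 gene was disrupted, and they do not say whether an array is 1 mouse or 1 culture. The p-values therefore reflect how much these arrays vary, some of which may be technical.

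Fibronectin is the first fibrillar scaffold that osteoblastic cells lay down, and collagen and other matrix proteins assemble on it through integrins. Thrombospondins and tenascins are matricellular proteins: they bind the scaffold, growth factors and cell receptors and tune adhesion more than they bear load. Thrombospondins fall into trimers (Thbs1 and Thbs2), which carry type 1 repeats, and pentamers (Thbs3 and Thbs4), which do not. Versican is a chondroitin sulfate proteoglycan that binds hyaluronan and swells the provisional matrix, which proteases of the ADAMTS family later remove.

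The array medians lay between 5.3 and 5.37 on the log2 scale, and Pearson correlations across genes, whose values are not independent of each other, were 0.9961 between the Y1KO arrays and 0.9911 to 0.9958 among the WT arrays. Npy1r, the gene of the Y1 receptor, stood at 2.86 ± 0.04 (SD, n = 2) in Y1KO and 2.94 ± 0.15 (SD, n = 4) in WT, near the bottom of the range on both sides, so this probe set checks the labels neither way. Of 8 osteoblast markers measured, all 8 lay above the median of all genes in WT, and Col1a1 stood at 13.60 ± 0.03 in Y1KO and 13.42 ± 0.05 in WT. Of 13 osteoblast markers listed, 5 were not analysed here, Runx2, Spp1, Bglap and Bglap2 among them. The 6 endothelial markers lay between percentiles 16.3 and 44.3 of all genes in WT, and 0 of the 6 were called in either direction by limma (0 and 0 at an unadjusted p under 0.05).

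Of the 9 matrix glycoprotein genes, 2 fell in Y1KO, Tnc and Vcan, and 0 rose. Calls were made where the limma p, adjusted over all 19935 genes, was under 0.05, a rule that called 12.7% of them, 6.64% lower and 6.10% higher in Y1KO. At an unadjusted limma p under 0.05, 3 of the 9 were lower and 2 were higher, the additional ones being Thbs2 lower and Thbs4 and Tnn higher. The median difference of the 9 genes, Y1KO minus WT, was -0.01 on the log2 scale, beside 0.01 over all genes, so the genes did not shift together. In 5 of the 9 the Y1KO arrays did not overlap the WT arrays, 3 lower and 2 higher, where 34.8% of all genes had groups apart, 17.3% lower and 17.5% higher. With so few genes, 2 calls and 5 separated genes are given as counts, with no test of the set.

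**Figure D1:**
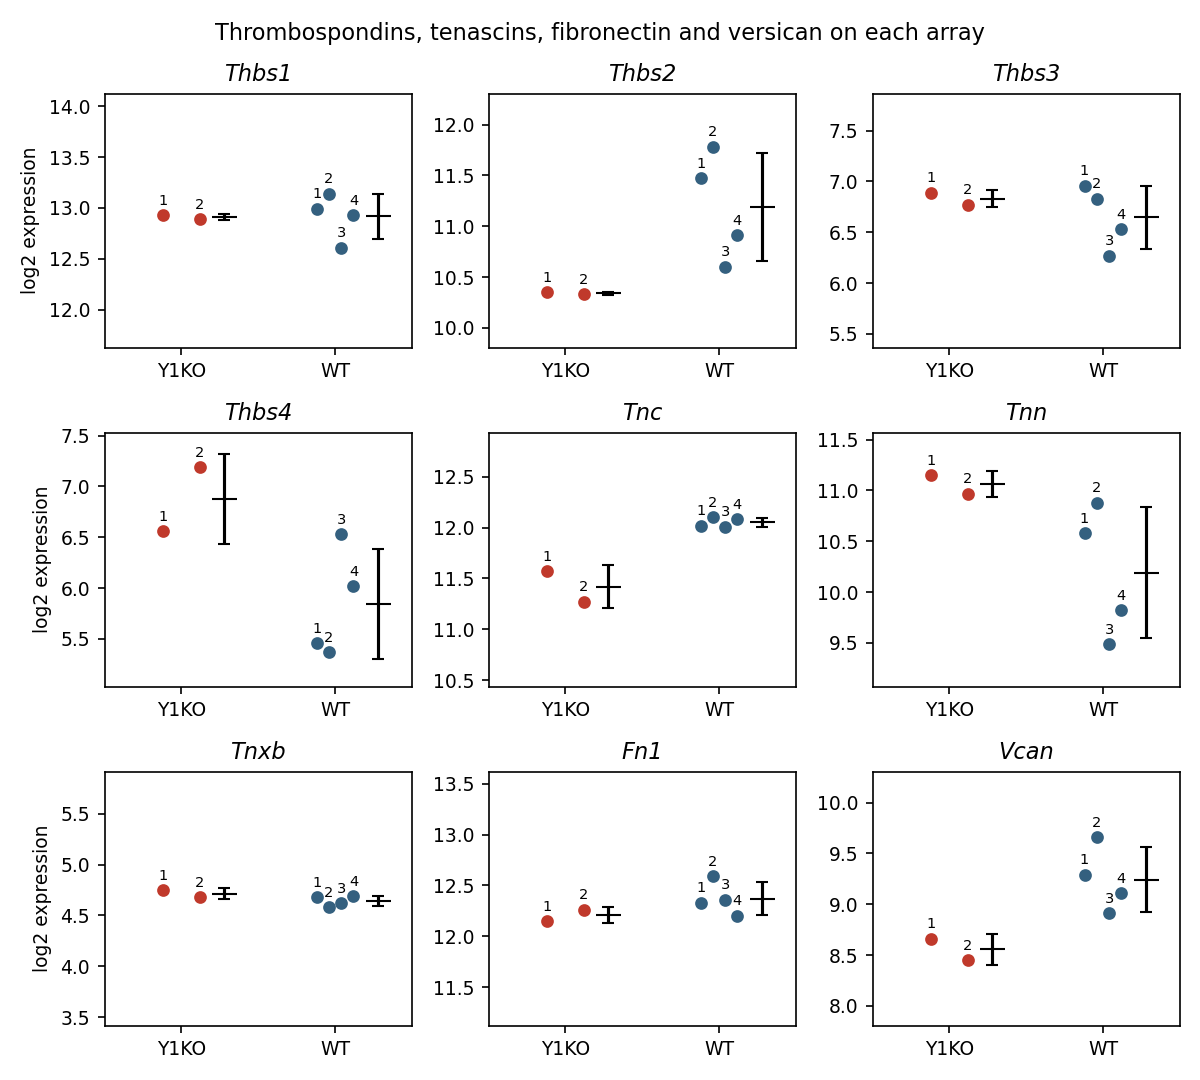
Log2 expression of the 9 genes on each array, Y1KO left and WT right in each panel, with the replicate number above each point and the mean ± SD to the right of the points. All panels span the same log2 range on their own axis. Tnc is tight in WT (SD 0.05) and lower on both Y1KO arrays, while the WT arrays of Tnn, Thbs2 and Thbs4 are spread over more than 1 log2 unit.

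Tnc encodes tenascin-C, a hexameric glycoprotein of developing and remodelling bone, tendon and wounds that weakens cell adhesion to fibronectin. It read 11.57 and 11.27 on the Y1KO arrays, against 12.02, 12.10, 12.01 and 12.08 in WT. Both Y1KO arrays lay below every WT array, by at least 0.45, and the WT arrays were within 0.09 of each other. Tnc averaged 11.42 ± 0.21 (SD, n = 2) in Y1KO and 12.05 ± 0.05 (SD, n = 4) in WT, a difference of -0.63 (SE 0.10, 95% interval -0.87 to -0.40, limma adjusted p = 0.00567), or 1.55-fold lower in Y1KO. The gene stayed among the strongest signals in both genotypes, at percentile 99.33 of all genes in Y1KO and 99.82 in WT. The spread of Tnc among the WT arrays was at percentile 5.73 of all genes, and the Y1KO arrays lay farther apart, by 0.30. The call was lost without Y1KO replicate 2 (difference -0.48, limma adjusted p = 0.0791) and without moderation of the variance (adjusted p = 0.0685).

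Vcan encodes versican. It read 8.66 and 8.45 in Y1KO, against 9.29, 9.66, 8.91 and 9.11 in WT. Both Y1KO arrays were below all WT arrays, by at least 0.25, and WT replicate 2 was the highest. The means were 8.56 ± 0.15 (SD, n = 2) in Y1KO and 9.24 ± 0.32 (SD, n = 4) in WT, a difference of -0.69 (SE 0.19, 95% interval -1.11 to -0.27, limma adjusted p = 0.0438), or 1.61-fold lower in Y1KO. The value passed the threshold narrowly. The call was lost with arrays centred on their medians (limma adjusted p = 0.0519), without moderation (0.23), and without Y1KO replicate 1 (0.13), Y1KO replicate 2 (0.31), WT replicate 1 (0.0885) or WT replicate 4 (0.0666). The difference stayed between -0.92 and -0.55 in all 15 alternatives. Deposited values are 1 per probe set, so the splice forms of versican, fibronectin and tenascin-C cannot be told apart.

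The sequences before the start sites of Tnc and Vcan are shown because these are the 2 genes that passed the test in the same direction. Each is the 250 bases before a transcript start in RefSeq, GRCm38.p6, minus strand, written 5′ to 3′ on the strand of the gene. Capitals mark matches to the motifs searched. The Tnc window is chr4:64047016-64047265 and the Vcan window is chr13:89742513-89742762.
Tnc: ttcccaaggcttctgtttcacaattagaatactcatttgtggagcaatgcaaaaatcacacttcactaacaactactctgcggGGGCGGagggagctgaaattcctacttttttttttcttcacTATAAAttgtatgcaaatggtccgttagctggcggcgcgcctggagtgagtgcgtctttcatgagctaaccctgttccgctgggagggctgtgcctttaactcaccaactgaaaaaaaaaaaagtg
Vcan: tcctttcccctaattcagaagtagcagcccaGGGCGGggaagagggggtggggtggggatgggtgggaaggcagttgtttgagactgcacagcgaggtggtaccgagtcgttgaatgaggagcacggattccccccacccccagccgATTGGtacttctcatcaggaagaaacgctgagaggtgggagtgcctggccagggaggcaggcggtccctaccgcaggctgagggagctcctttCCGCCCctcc
Motifs were searched on both strands, and 7 of the 9 genes had a listed window, Thbs1 and Fn1 being the others. The GC box (GGGCGG), found in 32.7% of 32851 such windows, occurred in both, at bases -167 to -162 of Tnc and at -219 to -214 and -10 to -5 of Vcan, counted back from the start site. Tnc also held TATAAA at -126 to -121 (12.4% of windows), and Vcan held CCAAT at -103 to -99 on the other strand (33.8%). TGANTCA, the AP-1 motif (6.75% of windows), was matched in the Tnxb window and not in the windows of Tnc or Vcan. CATTCC, the motif of TEAD factors (12.6%), occurred in the windows of Thbs4, as 2 matches that overlap by 1 base, and of Tnn, as 1 match on the other strand. TGTGGT, a Runx motif (14%), and the CArG box of serum response factor (1.47%) had no match in any of the 7 genes. The matches do not separate the 2 genes that fell from the others. RefSeq lists another Tnc start downstream, whose window overlaps the one shown.

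The trimeric thrombospondins differed from each other in their values. Thbs2, which in mice restrains the growth of marrow stromal cells, read 10.35 and 10.33 in Y1KO, against 11.47, 11.78, 10.60 and 10.91 in WT. Both Y1KO arrays lay below every WT array, and WT replicate 3 came nearest to them. Y1KO minus WT came to -0.85 (SE 0.28, 95% interval -1.49 to -0.21, limma adjusted p = 0.0927), larger in size than those of Tnc and Vcan but not past the test, with a WT SD of 0.53 at percentile 99.0 of all genes. Thbs2 passed with array weights (adjusted p = 0.0267), with the replicate number as a block (0.00247) and without WT replicate 3 (0.0254). The block difference rests on replicates 1 and 2 of each genotype, so it also leaves out WT replicate 3. Thbs1, an activator of latent TGF-beta and an inhibitor of blood vessel growth, read 12.93 and 12.89 in Y1KO, against 12.99, 13.14, 12.61 and 12.93 in WT. The groups overlapped, with Y1KO minus WT at -0.01 (SE 0.14, 95% interval -0.33 to 0.31, limma adjusted p = 0.981). At percentile 99.96 of all genes in Y1KO and 99.97 in WT, Thbs1 was among the brightest genes in both genotypes.

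Of the pentameric thrombospondins, Thbs4, best known from tendon and muscle, was higher in Y1KO without passing the test. It read 6.56 and 7.19 in Y1KO, against 5.46, 5.37, 6.53 and 6.02 in WT. Y1KO replicate 1 and WT replicate 3 were only 0.04 apart, so the groups barely separated. Y1KO minus WT came to 1.03 (SE 0.31, 95% interval 0.32 to 1.75, limma adjusted p = 0.0677), a 2.05-fold higher mean in Y1KO, and the largest in size among the 9 genes. It passed with array weights (adjusted p = 0.0212), with the replicate block (0.00424) and without WT replicate 3 (0.0167). Here too the block difference leaves out WT replicate 3. Thbs3, which is active in the growing skeleton of mice, read 6.89 and 6.77 in Y1KO, against 6.96, 6.83, 6.27 and 6.53 in WT. Its groups overlapped, with a difference of 0.19 (SE 0.18, limma adjusted p = 0.616). Comp, the remaining pentamer, named after its value was seen, averaged 5.01 in Y1KO and 5.25 in WT (limma adjusted p = 0.331).

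Among the tenascins other than Tnc, Tnn encodes tenascin-W, which in mice is found in the periosteum and in osteogenic cells. Tnn read 11.15 and 10.97 in Y1KO, against 10.58, 10.88, 9.49 and 9.82 in WT. The Y1KO arrays were above all WT arrays, by at least 0.09, but the WT arrays spanned 1.39, a spread at percentile 99.5 of all genes. Y1KO minus WT came to 0.87 (SE 0.34, 95% interval 0.09 to 1.64, limma adjusted p = 0.153), and Tnn passed in 1 of 15 alternatives, without WT replicate 2 (adjusted p = 0.0318). With the replicate block the difference of Tnn was 0.33 (limma adjusted p = 0.238). Tnxb encodes tenascin-X, which binds fibrillar collagen in skin and other loose connective tissue. It read 4.75 and 4.68 in Y1KO, against 4.68, 4.58, 4.62 and 4.69 in WT, at percentile 34.07 of all genes in WT, where the array can understate a difference. The groups overlapped, and the difference was 0.07 (SE 0.09, limma adjusted p = 0.692).

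Fn1, the fibronectin gene, was not past the test. It read 12.15 and 12.26 in Y1KO, against 12.33, 12.59, 12.36 and 12.20 in WT, with WT replicate 4 between the Y1KO arrays. Y1KO minus WT came to -0.17 (SE 0.12, 95% interval -0.44 to 0.10, limma adjusted p = 0.461). The interval leaves room for a decrease of 0.44 or an increase of 0.10 on the log2 scale. As a check that does not borrow spread from other genes, a two-sided exact permutation test, with 15 ways to divide the 6 arrays, gave p = 0.0667 for Tnc, the smallest it can give. The exact p was 0.133 for Vcan, Thbs2, Thbs4 and Tnn, and 0.2 or more for the remaining 4 genes.

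**Figure D2:**
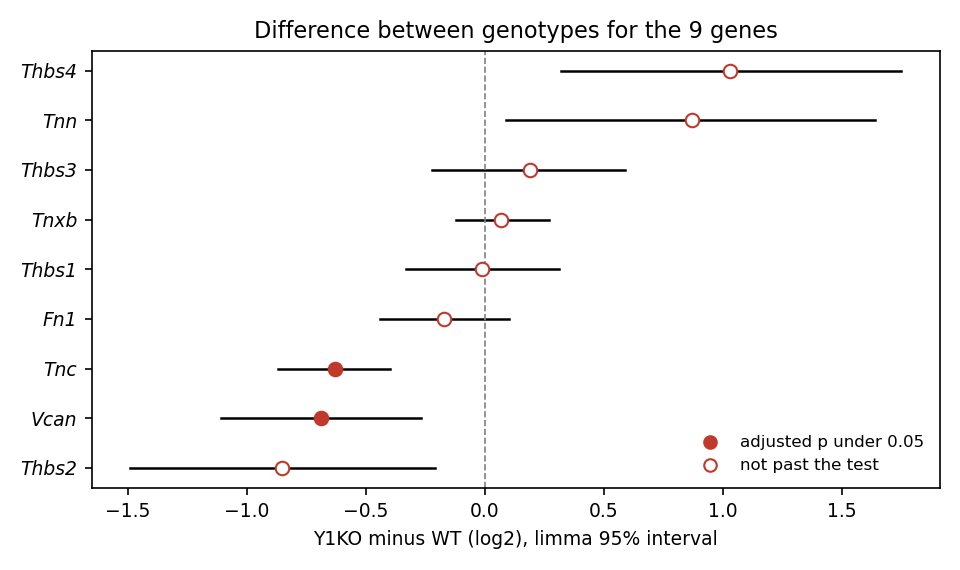
Difference in log2 expression, Y1KO minus WT, for each of the 9 genes, with the limma 95% interval as a line. Filled points passed a limma adjusted p under 0.05 and open points did not: Tnc and Vcan are filled, and the intervals of Thbs2, Thbs4 and Tnn leave out 0 before adjustment without passing after it.

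Much of the variation in these genes lay within the WT group. The median SD of a gene over the WT arrays was 0.125, and 7 of the 9 genes exceeded it: Tnn at 0.65, Thbs4 at 0.54, Thbs2 at 0.53, Vcan at 0.32, Thbs3 at 0.31, Thbs1 at 0.23 and Fn1 at 0.16. Tnc and Tnxb, each at 0.05, were the others. WT replicate 2 held the highest WT value in 6 of the 9 genes (Thbs1, Thbs2, Tnc, Tnn, Fn1 and Vcan), where it was highest in 27.7% of all genes. WT replicate 3 held the lowest in 6 of the 9 (Thbs1, Thbs2, Thbs3, Tnc, Tnn and Vcan), where it was lowest in 35.6% of all genes. Tnc is in both counts by small margins, as its WT arrays were within 0.09 of each other. Thbs4 ran the other way, with its highest WT value, 6.53, in replicate 3 and its lowest, 5.37, in replicate 2. In the same arrays WT replicate 2 was the lowest WT array for all 8 osteoblast markers, where it was lowest in 24.8% of all genes. Dmp1, a mineralisation gene of late osteoblasts and osteocytes, read 8.85 in WT replicate 2 against 10.07, 11.19 and 10.74 in WT replicates 1, 3 and 4, and Phex, named after its values were seen, read 6.36 against 7.46, 9.30 and 8.92. The part of this spread in the results was not tested beyond leaving out each array.

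**Figure D3:**
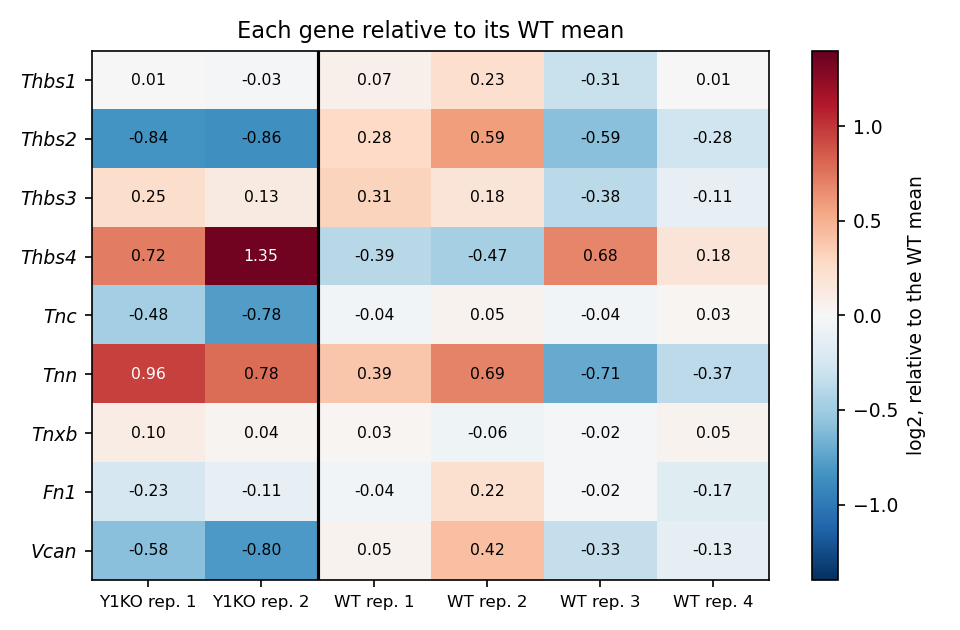
Log2 expression of each gene relative to its own WT mean, with Y1KO arrays left of the line and WT arrays right of it; red is above and blue below the WT mean. WT replicate 3 is low and WT replicate 2 high for Thbs2 (-0.59 and 0.59) and Tnn (-0.71 and 0.69), and the order turns for Thbs4 (0.68 and -0.47).

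The genes whose pattern was most like that of the 2 largest differences were found by the root-mean-square gap over the 6 arrays, each gene taken relative to its WT mean. For Thbs4 these were Frmd4b (gap 0.11), Sema4d (0.12) and Gal (0.12), where the median gap over all genes was 0.74. Sema4d encodes a semaphorin and Gal the neuropeptide galanin. Frmd4b, at 1.08 (limma adjusted p = 0.052), Sema4d, at 0.96 (0.0769), and Gal, at 1.02 (0.0811), were not past the test, and their likeness in difference is part of how they were chosen. Frmd4b passed in 6 of 15 alternatives, among them quantile normalization (limma adjusted p = 0.0425) and median centring (0.0453), and Thbs4 in 3. For Tnn they were C1ql3 (gap 0.13), Cemip (0.25), which takes part in hyaluronan breakdown, and Serpinb2 (0.27), a plasminogen activator inhibitor, where the median gap was 0.68. C1ql3 differed by 0.81, Cemip by 0.64 and Serpinb2 by 0.69, with limma adjusted p of 0.229, 0.109 and 0.101. Among the 9 genes themselves, Thbs2 and Vcan lay close together, with a gap of 0.20, and Thbs2 and Thbs4 farthest apart, at 1.33.

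Of 20 cell receptor genes for these proteins, 4 fell and 2 rose in Y1KO, with a median of -0.10. By the same rule 6.64% of all genes were called lower and 6.10% higher. Itga9, whose integrin with the beta 1 chain binds tenascin-C, fell by 2.78 (SE 0.15, limma adjusted p = 0.000103), with 5.86 and 5.69 in Y1KO, against 8.25, 8.45, 8.79 and 8.74 in WT. Itga8, whose integrin binds fibronectin and tenascin-C, fell by 0.91 (limma adjusted p = 0.00497), and Itgb3, of the vitronectin receptor that binds fibronectin and thrombospondin, fell by 1.00 (limma adjusted p = 0.00116). Cd36, a receptor of thrombospondin-1, rose by 0.94 (limma adjusted p = 0.00336), in the dim part of the range at 4.45 ± 0.12 (SD, n = 2) in Y1KO and 3.51 ± 0.20 (SD, n = 4) in WT. Named after their values were seen, Itga4, whose integrin binds a spliced segment of fibronectin, rose by 0.94 and Itgb8 fell by 0.52. Itgb8 lost its call in 7 of 15 alternatives, with quantile normalization (limma adjusted p = 0.0505), without moderation (0.168), with the replicate block (0.0502), and without Y1KO replicate 1 (0.274), Y1KO replicate 2 (0.0667), WT replicate 1 (0.062) or WT replicate 4 (0.0544). Itga4 lost its call in 3, without moderation (0.101), Y1KO replicate 1 (0.0579) or Y1KO replicate 2 (0.0672). The call of Cd36 was lost without moderation and without Y1KO replicate 2 (limma adjusted p = 0.0605), and that of Itga8 without moderation and without Y1KO replicate 1 (limma adjusted p = 0.062). Without Y1KO replicate 1, 1 receptor rose and 2 fell, without Y1KO replicate 2, 0 rose and 3 fell, and without WT replicate 3, 3 rose and 6 fell.

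Of 17 genes that make or hold hyaluronan, extend chondroitin sulfate or belong with versican to the lecticans, 5 rose and 1 fell, with a median of 0.13. Over all genes, 6.10% were called higher and 6.64% lower. Bcan encodes brevican, a lectican known from brain matrix. It rose by 1.82 (SE 0.37, limma adjusted p = 0.0134), with 8.58 and 8.80 in Y1KO, against 6.97, 5.86, 7.40 and 7.27 in WT. The groups were apart, and WT replicate 2 was the lowest array. The call of Bcan was lost with trend and robust options (limma adjusted p = 0.0614), without moderation (0.165), and without Y1KO replicate 1 (0.0813) or Y1KO replicate 2 (0.14). Hapln1, the link protein that ties lecticans to hyaluronan, rose by 1.34 (limma adjusted p = 0.00529), the hyaluronan synthase gene Has1 by 0.61 (0.00377) and Chsy1, which extends chondroitin sulfate chains, by 0.60 (0.00964). Named after their values were seen, the link protein gene Hapln3 rose by 0.85, and Fbln1, a fibulin that binds versican and fibronectin, fell by 0.52. Without moderation 1 of the list rose, without Y1KO replicate 1, 2 rose, and without Y1KO replicate 2, 1 rose, with 0 falling in these settings. With the replicate block 4 fell, and without WT replicate 3 2 fell.

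Of 15 matrix protease genes, 3 fell and 2 rose, with a median of -0.03, where 6.64% of all genes fell and 6.10% rose. Mmp13, the main collagenase of bone, which also cuts fibronectin and tenascin-C, fell by 2.19 (limma adjusted p = 0.000324). The listed ADAMTS enzymes did not move in 1 direction. Adamts5 fell by 1.49 (SE 0.35, limma adjusted p = 0.0265), with 6.61 and 6.74 in Y1KO, against 7.81, 9.14, 8.07 and 7.63 in WT. Adamts1, named after its values were seen, fell by 1.09 (limma adjusted p = 0.0408). Adamts15 rose by 1.47 (SE 0.25, limma adjusted p = 0.00671), with 7.56 and 7.71 in Y1KO, against 6.37, 5.47, 6.37 and 6.45 in WT. Named after their values were seen, Adamts4, Adamts9 and Adamts20 were not called. Adamts4 differed by 0.27 (limma adjusted p = 0.25), Adamts9 by -0.58 (0.306) and Adamts20 by -0.03 (0.896). Mmp2, a gelatinase, rose by 0.40 (limma adjusted p = 0.0263). Without either Y1KO array 1 fell and 0 rose, and Adamts5 and Adamts1 also lost the call with trend and robust options, as Adamts5 did without WT replicate 3 (adjusted p = 0.0521) and Adamts1 without WT replicate 1 (0.053) or WT replicate 4 (0.0869). Mmp2 lost it with the replicate block (0.151) and without WT replicate 4 (0.0588), where 1 protease rose.

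Among relatives and other matricellular genes, 5 of 14 fell and 1 rose, with a median of -0.14, where 6.64% of all genes fell and 6.10% rose. Nid1 and Nid2, the nidogens that link laminin and collagen in basement membranes, fell by 1.99 (limma adjusted p = 0.00032) and 0.79 (0.00335). Smoc1, a secreted calcium-binding protein that modulates BMP signals, fell by 1.60 (0.000936) and Sparcl1, a relative of osteonectin, by 0.70 (0.00759). Named after their values were seen, Ccn2, a matricellular gene induced by TGF-beta and by mechanical load, fell by 0.99, and Postn, the periostin gene, whose product binds tenascin-C and fibronectin, rose by 0.52 (limma adjusted p = 0.0477). Postn kept its call in 6 of 15 alternatives. Without Y1KO replicate 1, 3 of the list fell, and without Y1KO replicate 2, 2 fell.

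**Figure D4:**
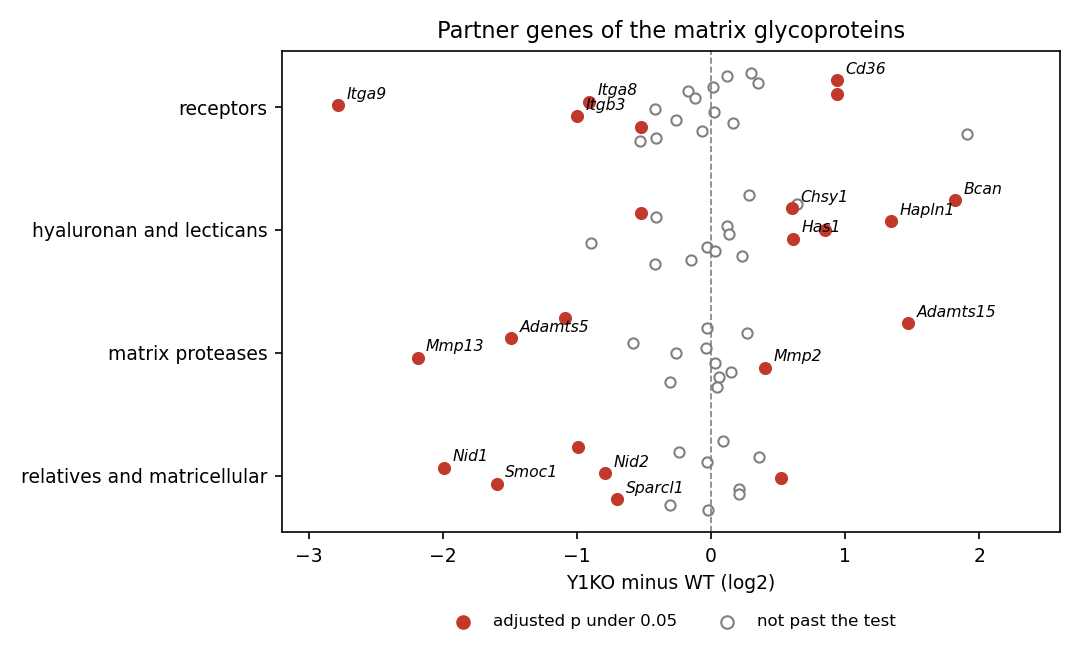
Difference in log2 expression, Y1KO minus WT, for each measured gene of 4 partner lists, 1 point a gene. Filled points passed a limma adjusted p under 0.05 and the 4 genes of smallest p in each list are named; Itga9 (-2.78) and Mmp13 (-2.19) lie farthest to the left and Bcan (1.82) is the called gene farthest to the right.

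Some markers of other cells differed between the genotypes in the same arrays. For comparison, 6.10% of all genes were called higher and 6.64% lower. Of 14 macrophage markers, 9 rose and 0 fell, with the mean of the list at 5.51 to 5.92 on the Y1KO arrays and 5.12 to 5.28 on the WT arrays, and Adgre1 and C1qa rose by 0.81 and 0.58. Without Y1KO replicate 2, 0 of the macrophage markers rose, and without WT replicate 4, 2 rose. Of 14 smooth muscle and pericyte markers, 10 fell and 1 rose, with list means of 7.77 to 7.88 in Y1KO and 8.53 to 8.80 in WT, and Myl9 and Mylk fell by 1.60 and 1.32. Without Y1KO replicate 1, 6 of the smooth muscle and pericyte markers fell, and without Y1KO replicate 2, 5 fell. Of 6 adipocyte markers, 4 fell and 0 rose, with list means of 5.78 to 5.80 in Y1KO and 6.93 to 7.54 in WT, and Lpl and Pparg fell by 2.71 and 1.45. Without moderation 1 adipocyte marker fell, and Pparg lost its call (limma adjusted p = 0.0811). In that setting 4 smooth muscle and pericyte markers fell and 1 macrophage marker rose. Of 9 chondrocyte markers 2 fell (Col2a1 by 1.59 and Col10a1 by 0.70) and 1 rose (Hapln1), with list means of 5.68 to 5.69 in Y1KO and 5.67 to 5.95 in WT. Without Y1KO replicate 2, 1 chondrocyte marker fell and 0 rose, Col10a1 having lost its call (limma adjusted p = 0.0804). Of 4 tendon markers 2 rose (Scx by 0.83 and Mkx by 0.58) and 0 fell, with list means of 5.83 to 5.87 in Y1KO and 5.45 to 5.76 in WT. Of the tendon markers 1 rose without Y1KO replicate 1 or WT replicate 4 and with the replicate block, where Mkx lost its call (limma adjusted p = 0.184, 0.0541 and 0.0536), and 1 rose without Y1KO replicate 2, where Scx lost it (0.0647). Of the 8 osteoblast markers 0 were called by limma (4 higher and 0 lower at an unadjusted p under 0.05), with list means of 11.56 to 11.68 in Y1KO and 10.50 to 11.43 in WT. Dmp1 differed by 1.66 (limma adjusted p = 0.0789) and Ibsp by 0.47 (0.109). Dmp1 passed with array weights (0.0244), with the replicate block (0.00389) and without WT replicate 2 (0.021) or WT replicate 3 (0.035). With the block 3 osteoblast markers were called higher, and without WT replicate 2, 1 was called higher and 1 lower. No marker read 0, since every probe set on the array has a value above it. Tnc and Vcan are also made by smooth muscle cells, pericytes and fibroblasts, and the part of these markers in the fall of Tnc and Vcan was not tested. In bulk RNA of sorted cells, fewer cells of a type and less RNA per cell cannot be told apart.

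**Figure D5:**
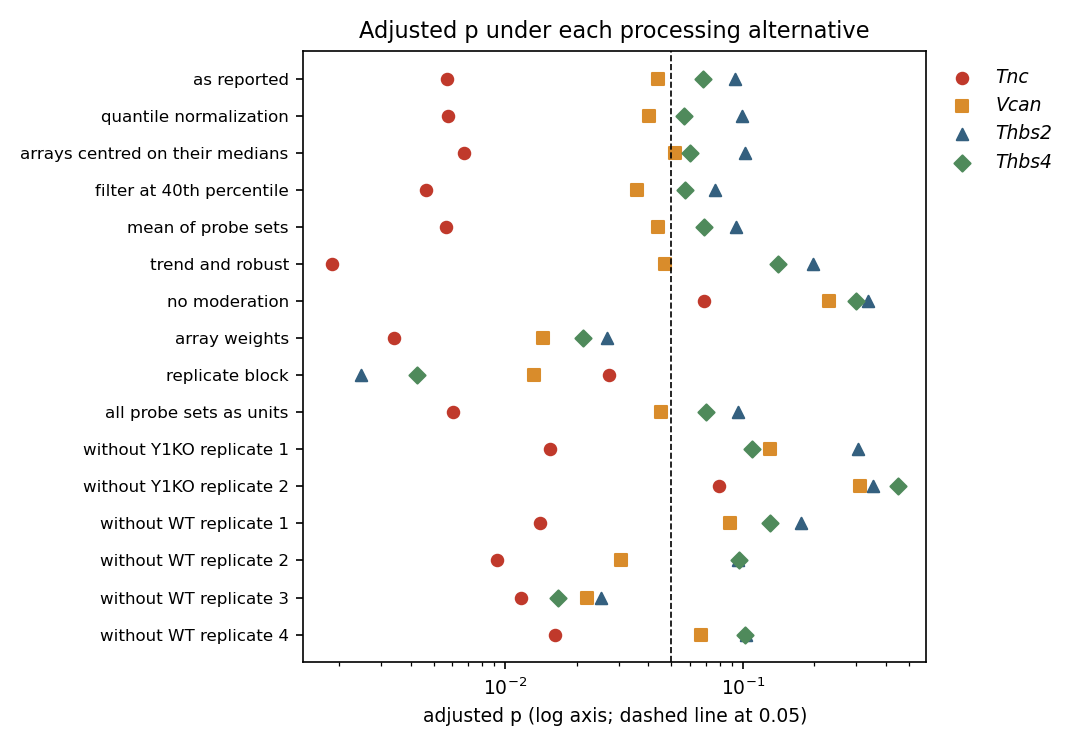
Limma adjusted p on a log axis for Tnc, Vcan, Thbs2 and Thbs4 as reported and under each of 15 processing alternatives, with a dashed line at 0.05. Tnc lies left of the line in all but 2 alternatives, Vcan crosses it in 6, and Thbs2 and Thbs4 each lie left of it in 3.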

How the data were processed

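The authors deposited 1 log2 value of expression for each of 28815 probe sets on each array. The submitters' processing notes name RMA and limma, without versions, settings or order. For the authors' genome build and annotation, nothing is given in the sources used here. The deposited values already had nearly the same distribution on all 6 arrays and were not normalized again. An array has no read depth, so the number of arrays, 2 and 4, limits the precision, and log2 differences of dim genes are understated.

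Probe sets were named from the public platform annotation, which can be old: 21780 had exactly 1 symbol, 1605 had several and 5430 none, and 21689 matched a RefSeq gene identifier. For 998 genes with several probe sets the one with the highest mean over all arrays was used, leaving 19935 genes. Y1KO was compared with WT by limma (version 3.58.1, under R 4.3.3; lmFit, then eBayes; two-sided, genotype as the only term), with Benjamini-Hochberg adjustment over all 19935 genes. The procedure was tested on simulated data, with independent noise at the WT variance of each gene in both groups. Arrays that vary together, or another variance in Y1KO, were not simulated. Values are means ± SD, and differences are Y1KO minus WT with the SE of the model.

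The 9 genes and the lists of receptors, hyaluronan and lectican genes, proteases, relatives and cell markers (osteoblast, macrophage, smooth muscle and pericyte, chondrocyte, tendon, endothelium, adipocyte) were chosen with earlier results of these data known. Named were all 9 genes, the 4 genes of smallest p in each partner list, the 2 of smallest p in each marker list, Col1a1, Npy1r and the 3 genes most like each of the 2 largest differences. Listed genes lacking a probe set of their own symbol alone were not analysed. The alternatives were quantile normalization, median centring, the mean of probe sets, a filter on dim genes at the 40th percentile, all probe sets as units, trend and robust options, no moderation, array weights, the replicate number as a block, and each array left out in turn. With the replicate number as a block, the difference rests on replicates 1 and 2 alone. WT replicates 3 and 4 have no Y1KO array of that number. Correlations of deviations from group means were 0.0127 and -0.204 for same-numbered arrays, and the numbers were not taken to pair the arrays. The deviations of the Y1KO arrays mirror each other, so this check cannot exclude pairing. Promoter sequences are from RefSeq, GRCm38.p6.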

Additional observations from a re-analysis of the deposited data

Results flagged for a closer look

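In 4 of the 60 named genes, 1 WT array lay far from the other WT arrays by Dixon's test at the 95% level, where chance gives about 5% of groups: Has1 in WT replicate 1 (4.76), Adamts15 in WT replicate 2 (5.47), Ibsp, a bone matrix gene, in WT replicate 2 (12.34) and C1qa in WT replicate 2 (5.98). None of the 9 matrix glycoprotein genes was among them.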

How the results depend on the processing

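Of the 9 matrix glycoprotein genes, 1 fell with arrays centred on their medians (Tnc) and 0 fell without moderation, and 0 to 3 fell with 1 array left out. With array weights and with the replicate block 1 rose (Thbs4), and 0 to 1 rose with 1 array left out. Without moderation 140 of all genes were called higher and 204 lower; with 1 array left out the counts ran between 152 and 1172 higher and between 335 and 1290 lower, the lowest without Y1KO replicate 2. Leaving out an array reduces the number of arrays and, for Y1KO, leaves a lone array that is assumed to vary like the WT arrays. For differences close to 0 the sign turned: Thbs1 was 0.01 with median centring and ran between -0.11 and 0.07 with 1 array left out, Thbs3 was -0.06 with the replicate block, and the endothelial gene Pecam1 was 0.12 with the replicate block and between -0.17 and 0.04 with 1 array left out. The numbers in the titles were not taken to pair the arrays. With the number as a block Tnc fell by 0.64 and Vcan by 0.92, and both kept their calls. In that setting 925 genes were called higher and 1256 lower. Fn1 and Tnxb were on the same side of the threshold, with the same sign, in each alternative that kept them; Tnxb was removed by the filter at the 40th percentile. For the cause of the changes in these counts, beyond the fewer arrays, no test was made. Low signal limits what can be said of Tnxb, Cd36, Itga8, Has1 and Adgre1, which are among the named genes that the filter removed.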
